A study of Homo sapiens with 6 samples.

Results

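Cadherins, desmocollin 2 and the transcription factors of the epithelial-mesenchymal transition (EMT) were followed in JIMT-1 cells, a human breast cancer line that carries HER2 and resists the drugs aimed at it. The members were the deposited rows for CDH1, CDH2, DSC2 and SNAI1 and every other row whose symbol starts with SNAI, TWIST or ZEB, which added SNAI2, TWIST1, TWIST2, ZEB1 and ZEB2 and gave 9 of the 758 genes on the panel. Cells of this 1 line were kept for 24 h with PBS in 3 samples, called CTL, or with aCT1 at 250 µM in the other 3, both in DMEM with fetal bovine serum. In aCT1, the last residues of the gap junction protein connexin 43 (Cx43) are fused to a cell-penetrating antennapedia peptide. PBS was the vehicle, so the CTL cells received no peptide of any kind. RNA was counted with barcoded probes on the nCounter breast cancer panel, and values are normalized counts, that is, probe counts scaled by the authors to housekeeping genes. The labels do not say whether samples of a group came from separate cultures, so p-values measure the spread between these samples, which may be technical.

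Classical cadherins are calcium-dependent adhesion proteins that join like cells to each other. CDH1 encodes E-cadherin, the cadherin of epithelial adherens junctions, CDH2 encodes N-cadherin, which is typical of mesenchymal and neural cells, and DSC2 encodes desmocollin 2, the cadherin-type adhesion protein of desmosomes. The SNAI, TWIST and ZEB genes encode transcription factors that drive EMT, and the Snail and ZEB proteins repress CDH1 by binding E-box sequences in its promoter. A shift from E-cadherin to N-cadherin is a common readout of EMT in carcinoma cells. The study looked at CDH2 because Cx43 has been linked to its transcription through the factor BTF3.

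The sequences just upstream of CDH2 and DSC2 are shown because these are the junction genes whose groups did not overlap, and because the Snail and ZEB proteins read the letters CAGGTG. Windows of 250 bases ahead of annotated starts came from RefSeq on GRCh38.p14, which was used only for these sequences and for gene names. Windows were at hand for 5 of the 9 members, and not for CDH1, SNAI1, SNAI2 or TWIST1. The promoter of CDH1 was therefore not read. The CDH2 window lies at chr18:28177131-28177380 on the minus strand and the DSC2 window at chr18:31102422-31102671 on the minus strand. Both are written 5′ to 3′, with CAGGTG, or its reverse complement CACCTG, in capitals.
CDH2: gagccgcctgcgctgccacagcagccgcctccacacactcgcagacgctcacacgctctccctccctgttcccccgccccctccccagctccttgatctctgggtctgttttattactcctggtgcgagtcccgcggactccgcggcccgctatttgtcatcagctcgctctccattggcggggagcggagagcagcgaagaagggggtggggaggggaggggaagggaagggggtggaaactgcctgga
DSC2: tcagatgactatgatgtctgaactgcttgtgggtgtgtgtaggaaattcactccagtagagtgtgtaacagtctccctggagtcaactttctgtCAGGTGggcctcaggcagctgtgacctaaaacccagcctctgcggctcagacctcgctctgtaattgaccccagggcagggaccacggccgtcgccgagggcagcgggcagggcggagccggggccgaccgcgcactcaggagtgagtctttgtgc
The DSC2 window held CAGGTG 1 time, with its first base 156 bases ahead of the start, and the CDH2 window did not hold these letters on either strand. A second window each for CDH2 and DSC2, at other annotated starts, held no match, so the DSC2 window shown is the one that held the letters. Of all 35116 windows of this length, 17.5% held CAGGTG or CACCTG, and 61.8% held the looser E-box CANNTG, which includes both. A match is a description of letters and says nothing about binding in these cells.

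Each sample carried between 1437572 and 1494919 counts, so depth was close to even. Of 6 panel markers of a HER2+ epithelial cell, 5 had means over 1000 normalized counts, among them ERBB2, the gene of HER2, averaging 9316 ± 239 over CTL and 9480 ± 493 over aCT1 samples (SD, n = 3 each). The remaining one, the mucin gene MUC1, was low, at 149 ± 15.7 in CTL and 149 ± 18.3 in aCT1 (SD, n = 3 each). KRT7 was the 1 marker of the 6 whose groups did not overlap, at 7416 ± 179 in CTL and 8047 ± 162 in aCT1 (SD, n = 3 each). Groups did not overlap in 17.9% of the 459 genes tested below. The part of the KRT7 difference in other results was not tested. The 13 blood lineage genes of the panel, most of them genes of lymphocytes and myeloid cells, had means from 6.46 to 41.9 normalized counts, and their sum ran from 189 to 244 in CTL and from 205 to 261 in aCT1. These genes serve here as a guide to the level that a probe gives with little or no target. Endothelial and stromal marker sums also overlapped between groups. Among single genes, groups did not overlap in 1 of the 13 blood lineage, 2 of the 7 endothelial and 0 of the 4 stromal genes. Over the 299 panel genes not tested, this held for 8.70%.

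The levels of the members spanned a wide range. CDH1 was the highest, from 5605 to 6042 normalized counts over the 6 samples, above 91.0% of the panel. CDH2 and SNAI2 followed with means of 1103 and 988 normalized counts, and these neighbours overlapped across samples. DSC2 came next with a mean of 636, then SNAI1 with 246 and TWIST1 with 91.2, each clear of its neighbours in all 6 samples. ZEB1, TWIST2 and ZEB2, at 26.4, 19.8 and 19.0 normalized counts, overlapped with each other and lay inside the range of the blood lineage genes. SNAI2 had the highest probe count of the 6 EMT factors, and SNAI1 stood at 23.8% ± 1.38 of SNAI2 in CTL (SD, n = 3). Probes count molecules without regard to length but differ in capture, so this order is one of probe counts.

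**Figure D1:**
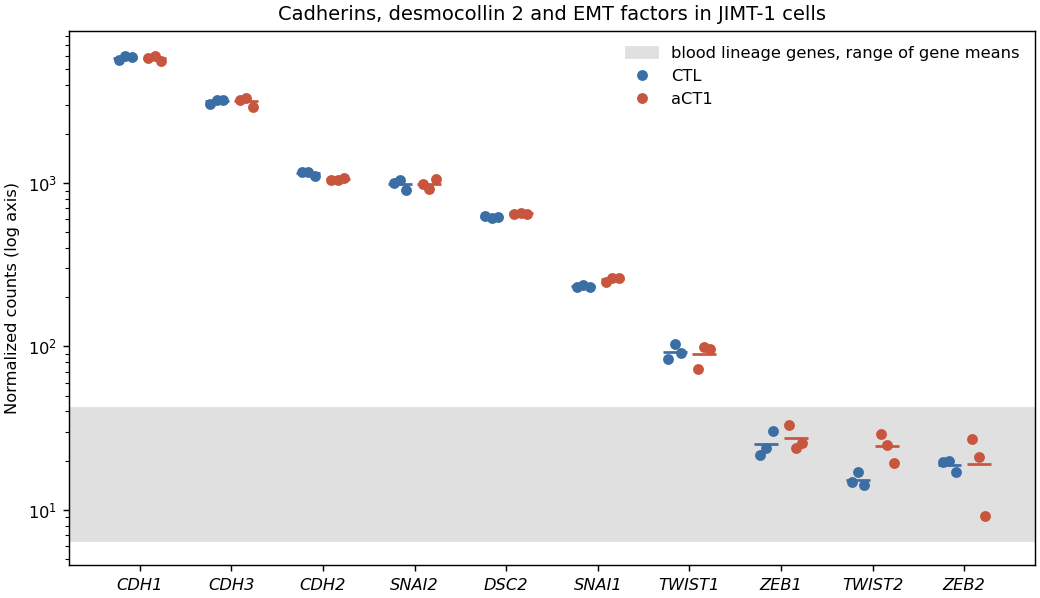
Normalized counts (log axis) of the 9 members and of CDH3, the other classical cadherin followed here, in 3 CTL (blue) and 3 aCT1 (red) samples. Points are samples, lines are group means, and the grey band is the range of means of the 13 blood lineage genes. CDH1 is highest at 5605 to 6042, and ZEB1, TWIST2 and ZEB2 lie in the band.

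CDH2 was lower in every aCT1 sample than in any CTL sample. Its values were 1176, 1169 and 1112 normalized counts in CTL and 1045, 1046 and 1069 in aCT1. The aCT1 samples lay close together and CTL replicate 3 was the nearest of the CTL samples to them. The means were 1153 ± 35.4 in CTL and 1054 ± 13.4 in aCT1 (SD, n = 3 each), a fold of 0.914 with a 95% interval of 0.863 to 0.969 in limma. On the log2 scale the difference was -0.13 (standard error 0.034, limma unadjusted p = 0.00879, adjusted p = 0.325). In RNA from whole cultures, fewer cells with the transcript and less transcript per cell cannot be told apart.

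CDH1 gave no such difference. It had 5649, 6042 and 5917 normalized counts in CTL and 5871, 6029 and 5605 in aCT1. The groups overlapped over nearly their whole range, with the lowest value in aCT1 replicate 3 and the highest in CTL replicate 2. The log2 fold change was -0.0087 with a 95% interval of -0.11 to 0.095 (limma adjusted p = 0.958), which in folds is 0.925 to 1.07. CDH3, which encodes P-cadherin of basal epithelium, had close group means, at 3160 ± 96.7 normalized counts in CTL and 3163 ± 199 in aCT1 (SD, n = 3 each). Its 95% interval on the log2 scale was -0.13 to 0.13. Whether CDH1 or CDH3 differs from CDH2 in its response was not tested. The 95% interval of CDH2 on that scale, -0.21 to -0.046, overlaps those of CDH1 and CDH3.

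DSC2 was slightly higher in the aCT1 samples. The CTL samples had 628, 610.2 and 622 normalized counts and the aCT1 samples had 645, 659.7 and 650.0. All 3 aCT1 values were above all 3 CTL values, with the smallest gap between CTL replicate 1 and aCT1 replicate 1. The fold was 1.05 with a 95% interval of 1.00 to 1.10, and the log2 fold change was 0.071 (standard error 0.029, limma unadjusted p = 0.0469, adjusted p = 0.414). With any 1 sample left out, the unadjusted limma p of DSC2 lay between 0.0707 and 0.141.

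**Figure D2:**
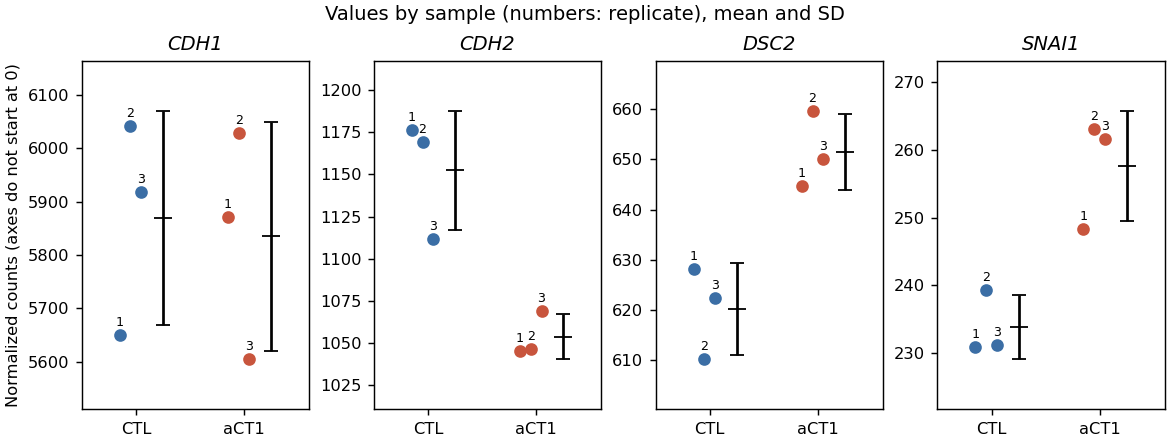
Normalized counts of CDH1, CDH2, DSC2 and SNAI1 by sample (points, with replicate numbers) and group mean with SD (bars, n = 3), on axes that do not start at 0. CDH2 lies in separate ranges of 1112 to 1176 in CTL and 1045 to 1069 in aCT1, as do DSC2 and SNAI1 in the other direction, while CDH1 overlaps.

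Among the transcription factors, SNAI1, which encodes Snail, was higher in every aCT1 sample. It had 231, 239 and 231 normalized counts in CTL and 248, 263 and 262 in aCT1. The nearest values of the groups were those of CTL replicate 2 and aCT1 replicate 1. The means were 234 ± 4.74 in CTL and 258 ± 8.15 in aCT1 (SD, n = 3 each), a fold of 1.10 with a 95% interval of 1.04 to 1.17. On the log2 scale the difference was 0.14 (standard error 0.036, limma unadjusted p = 0.00794, adjusted p = 0.325). Under quantile normalization it was 0.087 and its unadjusted limma p was 0.123.

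SNAI2, which encodes Slug, the closest relative of Snail among the members, did not share this pattern. Its values were 999, 1045 and 911 normalized counts in CTL and 991, 926 and 1054 in aCT1. The highest and the lowest value lay in different groups, aCT1 replicate 3 and CTL replicate 3. The log2 fold change was 0.0080 with a 95% interval of -0.16 to 0.18 (limma adjusted p = 0.979). Whether SNAI1 and SNAI2 differ in their response was not tested, and the 95% interval of SNAI1, 0.052 to 0.23, overlaps that of SNAI2.

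TWIST1, a bHLH factor of mesoderm, had 84.2, 103.7 and 90.5 normalized counts in CTL and 73.1, 99.6 and 96.1 in aCT1. Its groups overlapped, and its log2 fold change was -0.058 with a 95% interval of -0.39 to 0.28 (limma adjusted p = 0.919). Counting alone gives this gene a log2 standard error of 0.12, where limma gave 0.14.

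TWIST2, ZEB1 and ZEB2 were not among the 459 genes tested, whose lowest mean was 36.9 normalized counts. TWIST2, the close relative of TWIST1, had 14.7, 16.9 and 14.1 normalized counts in CTL and 29.0, 24.9 and 19.4 in aCT1. Its groups did not overlap, with aCT1 the higher, as in 4.68% of the 299 genes not tested, of which 8.70% had groups apart in either direction. Over all 758 genes, limma put the log2 difference of TWIST2 at 0.67 with a standard error of 0.17 and an adjusted p of 0.637. Its unadjusted p was 0.0104 in limma, where 6.33% of all 758 genes lay under 0.05 and 0.132% did so after adjustment, and 0.0256 in edgeR, where 9.37% did. Both groups lay within the range of the blood lineage genes, and the recovered counts were 14 to 29, so its log2 difference has a counting error of 0.27. ZEB1 had 21.5, 23.9 and 30.2 normalized counts in CTL and 33.0, 23.9 and 25.5 in aCT1. ZEB2 had 19.6, 19.9 and 17.1 normalized counts in CTL and 27.0, 20.9 and 9.20 in aCT1. Both ZEB genes, the zinc finger factors that repress CDH1, overlapped between groups, and ZEB2 in aCT1 replicate 3 was the lowest value of any member.

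Of the 6 members tested, 3 had an unadjusted limma p under 0.05, where 11.3% of the 459 genes tested did. Of these 3, 2 were higher in aCT1 and 1 was lower, against 7.84% and 3.49% of all genes tested. SNAI1 ranked 10, CDH2 ranked 11 and DSC2 ranked 52 by p among these genes, and DSC2 was the last of the 52 genes under this threshold. After Benjamini-Hochberg adjustment, 0 of the members and 0.0% of all genes had an adjusted p under 0.05 in limma. In edgeR, 1 of the 6 members, CDH2, had an unadjusted p under 0.05, as did 13.9% of all genes tested, and 0 of the members had an adjusted p under 0.05, as did 0.218% of all genes tested. Groups did not overlap in 3 of the 6 members tested, and in 17.9% of all genes tested, 12.4% higher and 5.45% lower in aCT1. For a gene whose groups do not overlap, the two-sided exact permutation test over samples gives p = 0.1, the smallest that 3 against 3 allow. The members were proposed with such results known, so these counts describe them and test nothing. The share of genes at this unadjusted limma threshold that lay higher in aCT1 was 69.2%, against 55.8% with samples centred on their median and 48.5% with quantile normalization. CDH2, DSC2 and SNAI1 kept their directions in both.

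The spread between samples was smaller than counting alone would give for the 3 tested members whose groups did not overlap. These 3 are singled out for groups apart, which a small spread favours. For SNAI1, samples of a group had a standard deviation of 0.039 on the log2 scale, where its counts of 230 to 264 give 0.092 by counting alone. For DSC2 it was 0.019 against 0.057, and for CDH2 0.034 against 0.043. Over all genes tested, 28.8% had a spread under the counting value, and the median ratio of the spread to the counting value was 1.31. The 37 genes tested with a mean within 0.5 log2 units of SNAI1 had a median spread of 0.12 on the log2 scale. Intervals from edgeR, whose quasi-likelihood model was fitted to recovered counts, were wider for these 3 genes. Its unadjusted p was 0.0104 for CDH2, 0.0809 for SNAI1 and 0.188 for DSC2, with adjusted p-values of 0.171, 0.408 and 0.592. CDH1 and SNAI2 stood at the other end, with spreads 2.73 and 2.12 times the counting value.

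**Figure D3:**
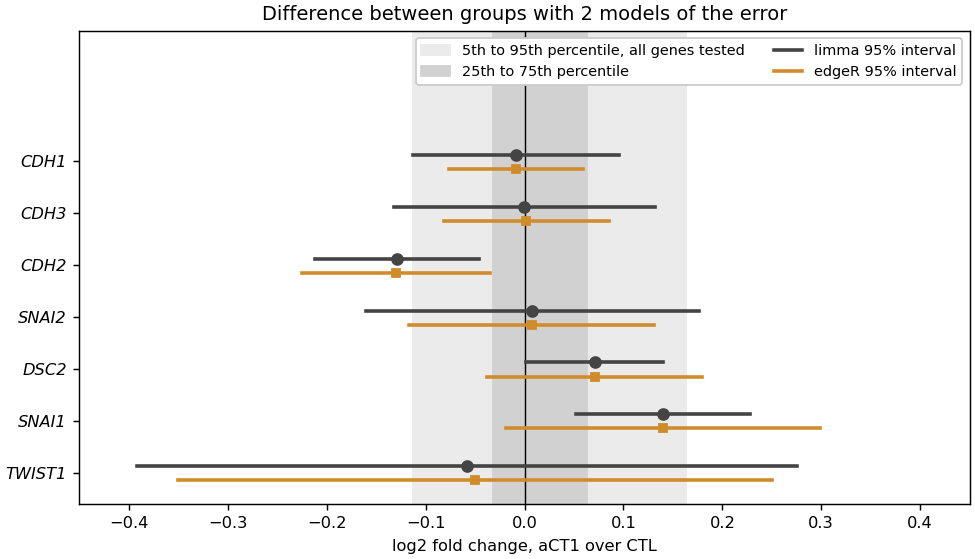
Log2 fold change, aCT1 over CTL, of the 6 members tested and CDH3, with 95% intervals from limma on log2 values (dark) and edgeR on recovered counts (orange). Grey bands give the spread of the 459 genes tested. The CDH2 interval lies below 0 in both, while those of DSC2 and SNAI1 lie above 0 in limma and include 0 in edgeR.

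Ratios within a sample do not depend on the scaling between samples. The ratio of CDH2 to CDH1, N-cadherin to E-cadherin transcript, was 20.8%, 19.4% and 18.8% in CTL and 17.8%, 17.4% and 19.1% in aCT1. Here the groups overlapped, since aCT1 replicate 3, with the lowest CDH1, was above CTL replicate 3. The means were 19.7% ± 1.05 and 18.1% ± 0.891 (SD, n = 3 each), a log2 difference of -0.12 where samples of a group had an SD of 0.073. Without CTL replicate 1 the log2 difference was -0.078. The ratio of DSC2 to CDH1 was 10.6% ± 0.514 in CTL and 11.2% ± 0.367 in aCT1 (SD, n = 3 each), with overlap. That of SNAI1 to SNAI2 was 23.8% ± 1.38 in CTL and 26.1% ± 2.01 in aCT1 (SD, n = 3 each), again with overlap, as CTL replicate 3 at 25.4% exceeded aCT1 replicates 1 and 3.

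**Figure D4:**
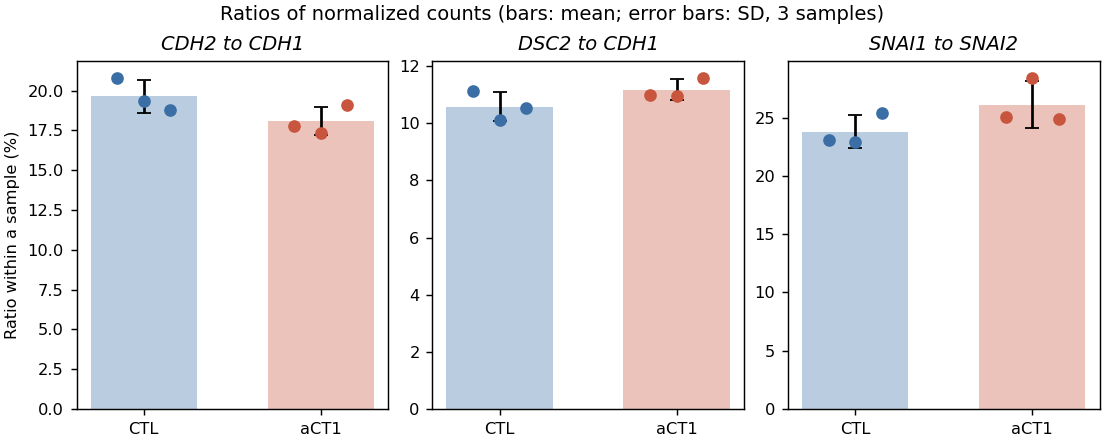
Ratio of normalized counts within each sample, in percent, for CDH2 to CDH1, DSC2 to CDH1 and SNAI1 to SNAI2 in CTL (blue) and aCT1 (red). Points are samples, bars are means from 0 and error bars are SD (n = 3). The groups overlap in each panel.

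The EMT gene set of the panel held 36 tested genes besides the members, of which 2 were higher and 1 was lower at an unadjusted limma p under 0.05 and 0 passed adjustment in limma. Over all genes tested, 7.84% were higher and 3.49% lower at this threshold. Its median log2 fold change was -0.0074, against 0.014 over all genes tested. Those 3 genes were TGFB2, a TGF-β ligand, which averaged 243 ± 16.4 and 302 ± 11.8 normalized counts over CTL and aCT1 samples (SD, n = 3 each), KRT7, a simple epithelial keratin, with a log2 fold change of 0.12, and SFRP1, a secreted Wnt antagonist, with -0.19. Of 8 other junction genes tested, 0 had an unadjusted p under 0.05 in limma and 4 were higher and 4 lower, where 277 of all genes tested were higher and 182 lower. The largest difference was that of CLDN1, which encodes the tight junction protein claudin-1, with a log2 fold change of -0.11, a standard error of 0.051 and an unadjusted limma p of 0.0747. OCLN, which encodes the tight junction protein occludin, differed by -0.032 on the log2 scale, and the claudin gene CLDN4 by 0.026.

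Of 9 mesenchymal genes tested, 0 had an unadjusted limma p under 0.05, 3 were higher and 6 lower, and their median log2 fold change was -0.018. Over all 459 genes tested, 277 were higher and 182 lower, with a median of 0.014. CAV1, which encodes caveolin-1, had 9512 ± 109 normalized counts in CTL and 9781 ± 242 in aCT1 (SD, n = 3 each). The epithelial transcription factor genes ELF3, FOXA1 and GATA3 had log2 fold changes of -0.012, 0.027 and 0.052, and 0 of these 3 had an unadjusted limma p under 0.05. Among 25 tested genes of inputs known to act on SNAI1 or on EMT, 1 had an unadjusted limma p under 0.05, TGFB2, where 11.3% of all genes tested did. The next by p was MDM2, which encodes the ubiquitin ligase of p53, at 5808 ± 163 normalized counts in CTL and 6121 ± 51.3 in aCT1 (SD, n = 3 each), with groups that did not overlap and an unadjusted p of 0.0562 in limma and 0.0143 in edgeR. EGF, a ligand of the EGF receptor, had a log2 fold change of 0.17 and groups that overlapped. Its unadjusted p was 0.0573 in limma and 0.2175 in edgeR. Counting alone gives its log2 difference a standard error of 0.13, where limma gave 0.071. The receptor gene TGFBR2 had 611 ± 20.6 normalized counts in CTL and 574 ± 22.2 in aCT1 (SD, n = 3 each), a log2 fold change of -0.090 with an unadjusted limma p of 0.0819.

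The genes most like each member were found by the Pearson correlation of log2 values over the 6 samples, across 458 other genes, as a description. These correlations include the group difference, and with 6 samples the 95th percentile of r for CDH2 was already 0.831. It was 0.771 for CDH1, 0.854 for DSC2 and 0.882 for SNAI1. CDH2 was most like LAMB3, which encodes a laminin-332 chain (r = 0.99), and FLNC, which encodes filamin C (r = 0.988), and least like CDKN2B, which encodes the cell cycle inhibitor p15 (r = -0.997). LAMB3 had a log2 fold change of -0.12 and CDKN2B of 0.17, with limma adjusted p-values of 0.325 and 0.283. SNAI1 was most like CKS1B (r = 0.982) and WEE1 (r = 0.98), both genes of cell cycle control, and least like GGH (r = -0.967). DSC2 was most like the cytokine gene LIF (r = 0.985) and the repair gene XRCC2 (r = 0.976). CDH1, whose groups overlapped, was most like CACNG4 (r = 0.99) and the claudin gene CLDN7 (r = 0.927), and least like SPRY4 (r = -0.966). CACNG4 was low, with means of 64.3 normalized counts in CTL and 61.9 in aCT1. Among the members themselves, r with CDH2 was -0.857 for DSC2 and -0.782 for SNAI1, and CDH1 had an r of -0.082 with CDH2 and 0.0017 with SNAI1.

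**Figure D5:**
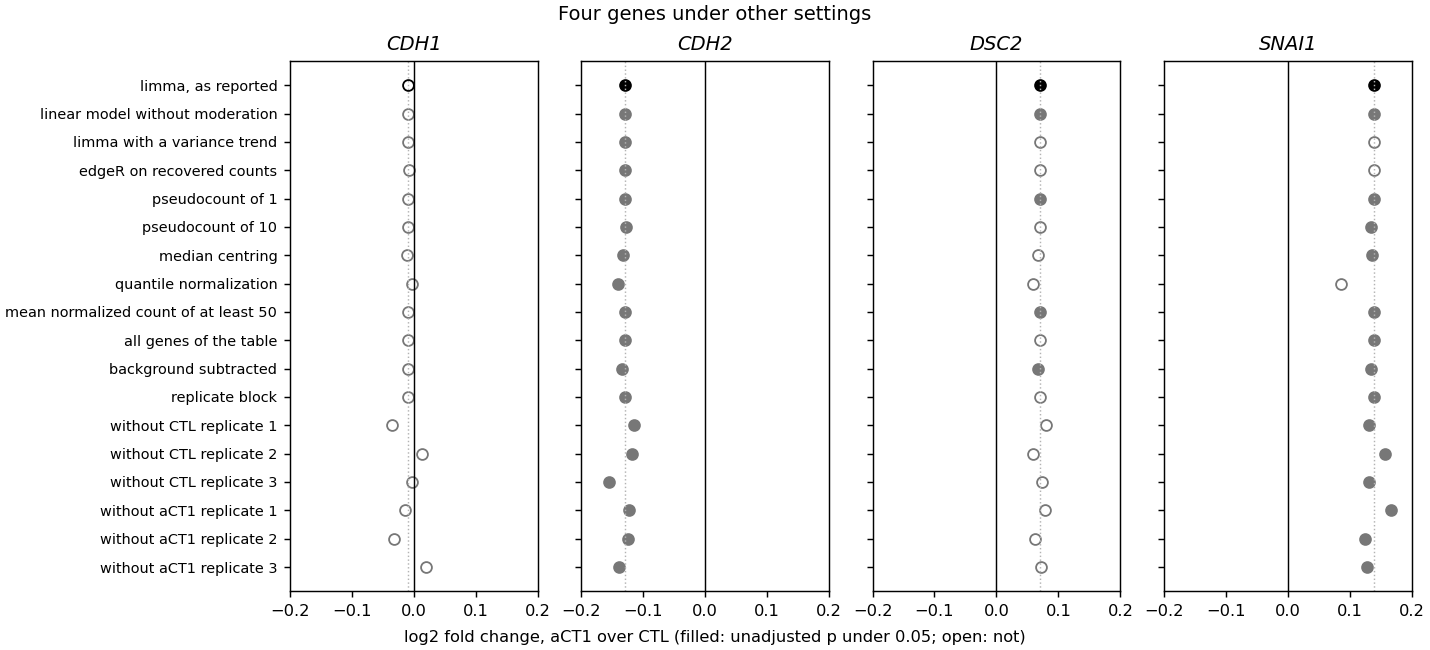
Log2 fold change, aCT1 over CTL, of CDH1, CDH2, DSC2 and SNAI1 as reported (top row) and under 17 other settings (rows below). Filled points have an unadjusted p under 0.05 and open points do not. CDH2 is filled in each row, DSC2 in few, and SNAI1 is open in 3.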

How the data were processed

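Total RNA from 3 CTL and 3 aCT1 samples of JIMT-1 cells was read on an nCounter breast cancer panel. The deposited values are the authors' probe counts after scaling to housekeeping genes in nSolver 4.0, given as a linear signal (normalized counts) and as its log2. Every linear value divided by the factor of its sample was whole within 0.01 (100% of values), which gave the recovered counts used for counting errors and edgeR.

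The tests covered the 459 genes for which the study's own analysis gives statistics. The rule behind that choice is not given in the sources used here. The other 299 genes had means of at most 37.3 normalized counts, and the lowest mean of a gene tested was 36.9. Groups were compared on the deposited log2 scale with limma 3.58.1 (R 4.3.3), two-sided, with Benjamini-Hochberg adjustment over these genes, a threshold of 0.05 and 95% intervals. edgeR 4.0.16 took those counts, with each sample's factor as an offset. Both were also run on simulated counts in which every gene had a spread added to counting. That setting does not cover genes such as SNAI1, DSC2 and CDH2, whose spread was under the counting value. Samples of 1 group were not copies of each other: over the 6 pairs, chi-square divided by its degrees of freedom was 1.66 to 3.11.

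The members and gene lists were chosen with earlier results of these data known. Genes named are the members, CDH3, at most 4 genes of each list by smallest p, cell type markers, and for CDH1, CDH2, DSC2 and SNAI1 the 2 most like and 1 least like genes. Some genes under this rule are not reported here. Alternatives were a linear model without moderation, limma with a variance trend, edgeR, median centring, quantile normalization, pseudocounts of 1 and 10, a mean of at least 50, all 758 genes, a subtraction of the blood lineage median from each sample, the replicate number as a block, and each sample left out. The EMT set and the list of genes tested follow the annotation of the study.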

Additional observations from a re-analysis of the deposited data

Results flagged for a closer look

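TWIST2 lies outside the genes tested and had a log2 difference of 0.67 between aCT1 and CTL, with all 3 aCT1 samples above all 3 CTL samples. Its 15.2 ± 1.52 normalized counts in CTL and 24.5 ± 4.82 in aCT1 (SD, n = 3 each) lay within the range of the blood lineage genes. The adjusted p over all 758 genes was 0.637 in limma and 0.367 in edgeR on the recovered counts. TWIST1, the related gene with more counts, had a log2 fold change of -0.058. The part of background in this difference was not tested.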

How the results depend on the processing

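CDH2 kept its direction and an unadjusted p under 0.05 under all 17 alternatives, from -0.15 to -0.11 on the log2 scale, with adjusted p-values from 0.159 to 0.691. SNAI1 kept its direction, from 0.087 to 0.17, and an unadjusted p under 0.05 under 14 of 17, all but the variance trend, edgeR and quantile normalization. DSC2 kept its direction, from 0.059 to 0.080, and an unadjusted p under 0.05 under 4 of 17. With 1 sample left out, CDH1 ran from -0.036 to 0.020 and changed sign without CTL replicate 2 (0.013) and without aCT1 replicate 3 (0.020), SNAI2 from -0.047 to 0.056, TWIST1 from -0.14 to 0.082 and CDH3 from -0.035 to 0.052. SNAI2 was -0.010 with quantile normalization, CDH3 0.0018 with edgeR, and ZEB2 0.017 with edgeR over the whole table (-0.12 in limma), a setting chosen after seeing the data. At an adjusted threshold of 0.05, limma called 0 genes (52 unadjusted), and the variance trend, edgeR and limma over all 758 genes called 1 each. With the variance trend and with edgeR that gene was SFRP1, of the EMT set. In limma over all 758 genes, SFRP1 had an adjusted p of 0.666. The number of EMT set genes with an unadjusted p under 0.05 was 3, became 5 with the variance trend, edgeR and quantile normalization, and ranged from 3 to 5 with 1 sample left out (5 without CTL replicate 3). With the replicate number as a block, 47 genes had an unadjusted p under 0.05, and that p was 0.0344 for CDH2, 0.0174 for SNAI1 and 0.127 for DSC2. Deviations of same-numbered samples correlated at -0.014, 0.192 and -0.154. The labels do not say whether same-numbered samples were handled together. These correlations cannot decide it, since deviations of 3 samples around their own group mean depend on each other. The log2 difference of the CDH2 to CDH1 ratio ran from -0.16 to -0.078 with 1 sample left out, the latter without CTL replicate 1. What causes these shifts was not tested. Depth limits TWIST1, TWIST2, ZEB1 and ZEB2 most, where counting alone gives standard errors of 0.12 to 0.27 on the log2 scale. For SNAI1, DSC2 and CDH2 counting alone gives 0.075, 0.047 and 0.036. These lie above the limma standard errors of 0.036, 0.029 and 0.034.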
